A study of Mus musculus with 14 samples.

Results

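The miR-379 to miR-410 cluster is a run of miRNA hairpins in the imprinted Dlk1-Dio3 domain of mouse chromosome 12. Its members were chosen by name from a list of the hairpins in map order. The rule used no measured value, but it was set with earlier results of these data known. The tables held 69 mature miRNAs from 35 of these hairpins, out of 1123 mature miRNAs from 759 hairpins. Of the 69, 34 were 5p arms and 35 were 3p arms. The tables held no miRNA under the listed names miR-654 and miR-496. In all, 61 of the 69 passed the filter of at least 5 CPM in at least 3 libraries, as did 638 of the 1123, and only these were tested.

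Small RNA was sequenced from dorsal root ganglia (DRG), which hold the cell bodies of sensory neurons, in the inbred mouse strains C57BL/6 and CAST/Ei. The 14 libraries comprised 5 from naive C57BL/6, 3 from injured C57BL/6, 3 from naive CAST/Ei and 3 from injured CAST/Ei mice, described by the submitters as biological replicates. The injury was a crush of the left sciatic nerve for 30 s in males aged 8 to 10 weeks, and neither strain is labelled as carrying an engineered allele. The age and sex of the naive mice, the time after injury, the ganglia taken and any pooling of animals are not recorded in the labels, so these cannot be told apart from the groups.

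In an imprinted domain, a gene is read mainly from the chromosome of 1 parent. In the Dlk1-Dio3 domain the noncoding RNAs Meg3, Rian and Mirg and the miRNAs between them are known to be read from the maternal chromosome. Each hairpin is cut into a 5p and a 3p arm, and the loaded arm finds its target mRNAs mainly through its seed, bases 2 to 8 from the 5′ end. In neurons this cluster is known for transcription induced by electrical activity through the factor Mef2, and its member miR-134-5p is known to act on dendritic spines and dendrites through Limk1 and Pum2.

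By RefSeq (GRCm38.p6) the hairpins lay at chr12:109709060-109743795, a span of 34.7 kb, from miR-379 to miR-410 on the plus strand. miR-299b was the exception and lay on the minus strand opposite miR-299a. In the GENCODE M21 annotation of the same assembly, 12 hairpins (miR-382 to miR-410) lay inside the noncoding gene Mirg at chr12:109729764-109749460, 8 of them overlapping an exon and 4 in introns. The other 23 lay before the annotated start of Mirg, so the name Mirg covers only the distal end of the run in this annotation. The hairpin of miR-544 was placed by GENCODE and the others by RefSeq. The build used for the deposited tables is not given, and positions were matched by miRNA name.

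Mature sequences from RefSeq were found for 65 of the 69 members, and none of them was read from CAST/Ei. They are written 5′ to 3′ with the seed in capitals. The first set is shown because its 5 members passed the injury test averaged over strains.
miR-1197-3p: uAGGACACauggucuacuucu
miR-323-3p: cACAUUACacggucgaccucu
miR-543-5p: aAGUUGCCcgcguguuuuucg
miR-485-3p: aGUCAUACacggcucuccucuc
miR-154-3p: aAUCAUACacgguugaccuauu

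The second set is shown for the comparison between strains. It holds the 3 members that passed in naive ganglia and miR-376c-5p, which differs from miR-376b-5p at 1 base.
miR-379-5p: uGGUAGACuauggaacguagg
miR-495-3p: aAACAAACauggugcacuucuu
miR-376b-5p: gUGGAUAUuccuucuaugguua
miR-376c-5p: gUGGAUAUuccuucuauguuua

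The third set shows pairs of abundant members that resemble each other.
miR-376a-3p: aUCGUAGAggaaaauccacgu
miR-376b-3p: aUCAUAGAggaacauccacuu
miR-300-3p: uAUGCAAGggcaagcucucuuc
miR-381-3p: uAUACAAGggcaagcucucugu
miR-379-3p: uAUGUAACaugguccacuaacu
miR-411-3p: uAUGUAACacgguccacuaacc

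The last set holds 2 of the most abundant members, miR-134-5p, and miR-410-3p from the far end of the run.
miR-382-5p: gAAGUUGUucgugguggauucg
miR-541-5p: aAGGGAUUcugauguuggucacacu
miR-134-5p: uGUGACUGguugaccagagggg
miR-410-3p: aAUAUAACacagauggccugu

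The members held 60 distinct seeds, and 55 of the 65 members with a sequence had a seed that no other member shared. The 5 shared seeds joined miR-379-3p with miR-411-3p, miR-299a-3p with miR-299b-3p, miR-379-5p with miR-1193-5p, miR-494-5p with miR-410-5p, and miR-376b-5p with miR-376c-5p. Of the 60 seeds, 12 also occurred in a mature miRNA that was not a member. For the seed of miR-758-5p this was only miR-1197-5p, an arm of a hairpin of the cluster that the tables do not list. Among the rest, miR-410-3p shared its seed with miR-344d-3p and miR-344e-3p, and miR-329-3p with miR-362-3p.

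Some members were alike enough that the authors' read assignment could have moved reads between them. Positions are counted from 1 at the 5′ end, with the base of the first miRNA named written first. miR-376b-5p and miR-376c-5p differed by G19U alone. miR-379-3p and miR-411-3p differed by U10C and U22C, and miR-376a-3p and miR-376b-3p by G4A, A13C and G20U. miR-300-3p and miR-381-3p differed by G4A, U21G and C22U. Both arms of miR-299b were contained whole in the longer arms of miR-299a, so reads that lack the extra bases match both. The tables list the 5p arms at means of 851 and 13.1 CPM for miR-299a and miR-299b.

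The libraries held 4007706 to 15642360 recovered miRNA reads, and a library's floor of 3 reads was 0.202 to 0.760 CPM. CPM here means counts scaled to library sizes that the deposited tables had already rescaled, and the reads behind a low member limit its precision. The sensory neuron markers (miR-183, miR-96, miR-182) summed to 16337 to 35423 CPM in a library, and no listed marker of any cell type was at 0 in every library. Libraries 4 and 5 of the C57BL/6 naive group resembled each other more than they did the other 12. Between them the Spearman correlation was 0.951, and with the rest it was 0.871 to 0.926, against at least 0.925 among the rest. The summed myelinating glia markers, 3 arms of miR-338 and miR-219a, were 8627 and 8042 CPM in these libraries and 18219 to 35823 in naive libraries 1 to 3. The summed epithelial markers, 9 listed arms, were 1593 and 447 CPM against 226 to 274. Results that rest on the C57BL/6 naive group are therefore given with and without these libraries, and what sets them apart was not tested.

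The 69 members together took 1.29% to 2.98% of the reads of a library. Their summed level was 18878 ± 1854 CPM (SD, n = 5) in C57BL/6 naive ganglia and 25555 ± 2078 CPM (n = 3) in C57BL/6 injured ganglia. In CAST/Ei it was 22447 ± 257 CPM (n = 3) in naive and 23264 ± 771 CPM (n = 3) in injured ganglia. All 3 C57BL/6 injured libraries, at 23835 to 27865 CPM, lay above all 5 C57BL/6 naive libraries, at 16979 to 21550. The CAST/Ei naive libraries, at 22220 to 22726 CPM, also lay above every C57BL/6 naive library, and overlapped the CAST/Ei injured ones at 22392 to 23853. These relations depended on the scaling. As a plain share of reads the CAST/Ei naive libraries, at 1.94% to 2.34%, overlapped the C57BL/6 naive ones, at 1.29% to 2.12%, and lay below the CAST/Ei injured ones, at 2.56% to 2.63%. The C57BL/6 injured libraries, at 2.402% to 2.98%, lay above the C57BL/6 naive ones on this scale too. A sum over members chosen with results known was given no test. The ganglia were dissociated and their RNA taken in bulk, so fewer cells of a type and less RNA per cell cannot be told apart.

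**Figure D1:**
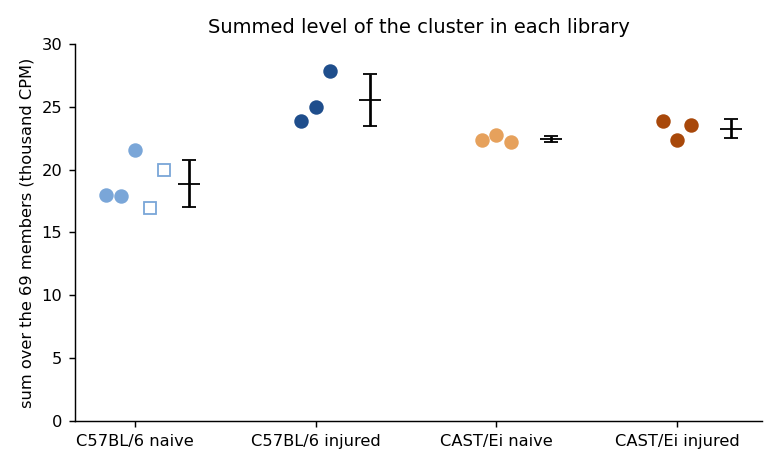
Sum of the CPM of the 69 members (y axis, in units of 1000 CPM, from 0) in each of the 14 libraries by group (x axis); filled circles and open squares are libraries, open squares are C57BL/6 naive libraries 4 and 5, and the bar beside each group is the mean with its SD. The C57BL/6 naive libraries, at 16979 to 21550 CPM, lie below every library of the other 3 groups on this scale, though not below CAST/Ei naive libraries as a plain share of reads.

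A few members carried most of this signal. By the mean of the 4 group means, the 3 most abundant were miR-379-5p at 2095 CPM, miR-382-5p at 1992 and miR-376a-3p at 1989, together 27.0% of the cluster. They were followed by miR-300-3p at 1544 CPM, miR-541-5p at 1174, miR-376c-3p at 911, miR-376b-3p at 873, miR-299a-5p at 851, miR-495-3p at 679.01 and miR-411-5p at 655. These 10 members made up 56.6% of the cluster. The hairpins of the miR-376 family, 3 of which are among these, are known substrates of adenosine-to-inosine editing in the brain, which the tables do not record. In all, 5 members exceeded 1000 CPM, 34 lay between 100 and 1000, 18 between 10 and 100 and 12 at or under 10, with a median of 151 CPM.

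The order of the leading members was not firm. Within C57BL/6 naive ganglia miR-382-5p was measured at 1898, 1386, 1887, 2100.0 and 1242 CPM and miR-376a-3p at 2078, 1846, 1678, 1149 and 2538 CPM. Their ranges overlapped in that group, so neither stood above the other by more than the spread. miR-410-3p, at the far end of the run, ranked 22nd with a mean of 341 CPM. Its C57BL/6 naive values were 126, 126, 362, 531 and 839.6 CPM, with libraries 4 and 5 the highest. miR-134-5p ranked 11th at 649 CPM with group means of 638 ± 74.2 (SD, n = 5) and 628 ± 41.6 CPM (n = 3) in naive and injured C57BL/6 and 699 ± 133.7 and 632 ± 74.5 CPM (n = 3 each) in naive and injured CAST/Ei. Neither passed the injury test in either strain with limma over all 14 libraries. For miR-410-3p the log2 difference in C57BL/6 was 0.22 ± 0.50 (SE), although its mean CPM went from 397 to 357, and the value rested on libraries 4 and 5. Without them it was 0.97 ± 0.33 (adjusted p = 0.12, limma), with a naive mean of 205 CPM, and with array weights it was 1.02 ± 0.31 (adjusted p = 0.039). Its sign was not firm, at −0.15 with edgeR and −0.23 with DESeq2.

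**Figure D2:**
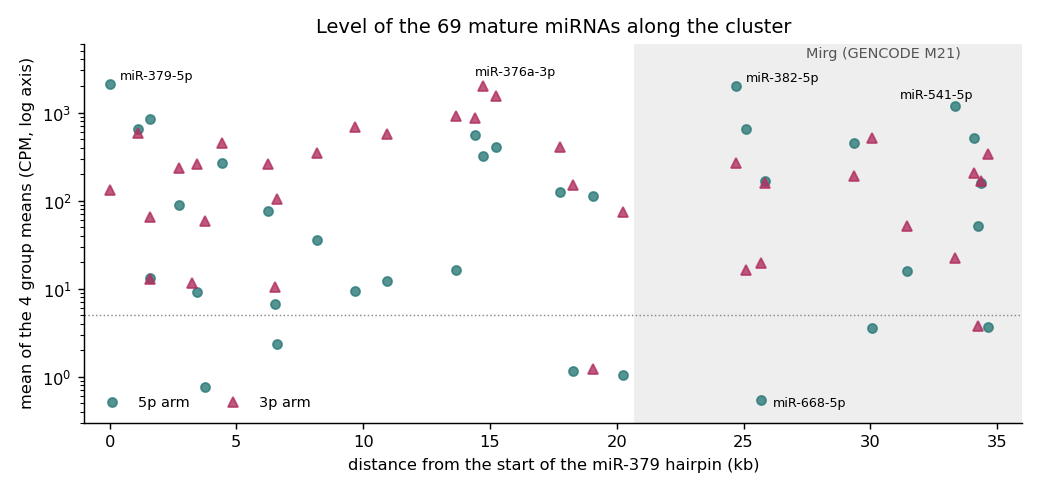
Mean of the 4 group means of each of the 69 members (y axis, CPM, log axis) against the distance of its hairpin from the start of the miR-379 hairpin (x axis, kb); circles are 5p arms, triangles 3p arms, the shaded stretch is the Mirg gene of GENCODE M21 and the dotted line is 5 CPM. The 5 members above 1000 CPM lie at the start, in the middle and inside Mirg, and levels span 0.540 CPM (miR-668-5p) to 2095 CPM (miR-379-5p).

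The 8 members that failed the filter were miR-758-5p, miR-1193-5p, miR-487b-5p, miR-539-3p, miR-544-5p, miR-668-5p, miR-496a-5p and miR-410-5p. Their means lay between 0.540 and 3.64 CPM, and the highest single value was 6.46 CPM. Each of the 35 hairpins kept at least 1 arm. Reads of 67 of the 69 members were found in every library.

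One arm dominated most hairpins. Of the 34 hairpins with both arms listed, 9 had more 5p than 3p reads in every library, 15 had more 3p reads in every library, and 10 changed their dominant arm between libraries. The highest 5p shares were those of miR-539, with a median over libraries of 99.2%, miR-541 at 98.0% and miR-134 at 97.7%. The lowest were those of miR-496a at 0.689%, miR-487b at 0.800% and miR-410 at 1.26%. For the closely related miR-376 hairpins the 5p share had medians of 1.86% for miR-376c, 13.6% for miR-376a and 37.1% for miR-376b.

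The ratio of the arms was tested over every hairpin of the whole table that kept both arms, 26 of them in the cluster. Averaged over strains, limma called the injury difference for 0 of the 26, where 0.503% of all hairpins tested passed in either direction. At an unadjusted p under 0.05 there were 5 of the 26, where 17 of all 199 hairpins were. For the strain difference averaged over injury states limma called 0 of the 26, where 2.01% of the hairpins tested passed. Here 2 of the 26 had an unadjusted p under 0.05, where 18 of all 199 did. The arm ratio was tested with limma alone. Without C57BL/6 naive libraries 4 and 5, 2 of the 26 passed for injury, where 1.51% of the hairpins tested passed.

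The first comparison was between injured and naive ganglia, averaged over the strains, which does not show a change in each strain by itself. Averaged over the strains, 5 of the 61 tested members rose in injured ganglia and 0 fell. All 5 were scarce to moderately abundant, and the 10 most abundant members of the cluster held none of them. A member was called when its adjusted p was under 0.05 (limma-trend on log2(CPM + 1), two-sided, Benjamini-Hochberg over the 638 kept miRNAs). Of all 638, 3.13% were called higher and 1.10% lower in this comparison. The members' median difference was 0.31 on the log2 scale and 51 of 61 lay above 0, while the median of all 638 was 0.01 and 325 lay above 0.

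miR-154-3p (chr12:109738474-109738495, in the Mirg part of the run) was measured at 119, 111, 155, 123 and 85.03 CPM in C57BL/6 naive libraries 1 to 5 and at 226, 237 and 259 CPM in the injured ones. In CAST/Ei it was 168, 133 and 151 CPM in naive and 234, 265 and 238 CPM in injured libraries. In both strains every injured library lay above every naive one, and the levels after injury were alike, with means of 240.4 ± 17.0 and 246 ± 16.9 CPM (SD, n = 3 each). The difference averaged over strains was log2 0.87 ± 0.17 (SE, adjusted p = 0.0059, limma), and it passed in all 27 alternatives.

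miR-1197-3p (chr12:109712396-109712416) was among the scarcest members tested, with 24 to 284 reads in a library. It was measured at 4.11, 4.78, 9.37, 5.63 and 17.1 CPM in C57BL/6 naive and 16.7, 13.6 and 21.03 CPM in injured libraries. In CAST/Ei it was 5.07, 5.23 and 4.13 CPM in naive and 15.5, 14.0 and 19.1 CPM in injured libraries. The CAST/Ei groups did not overlap, and in C57BL/6 naive library 5 alone reached the injured range. The averaged difference of log2 1.34 ± 0.28 (SE, adjusted p = 0.0097, limma) was the greatest among the called members and passed in all 26 alternatives that held it, since a filter of 20 CPM removes it. Because the pseudocount of 1 weighs on such low values, this scale understates the change.

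miR-323-3p (chr12:109712558-109712578), from the hairpin next to miR-1197, was measured at 279, 166, 168, 232 and 188 CPM in C57BL/6 naive and 457, 421 and 313 CPM in injured libraries. In CAST/Ei the values were 191, 145 and 190 CPM in naive and 276, 227 and 259 CPM in injured libraries. The naive and injured groups did not overlap in either strain. The averaged difference was log2 0.74 ± 0.18 (SE, adjusted p = 0.028, limma), and the call was lost in 7 of 27 alternatives, each of which left out 1 library (C57BL/6 injured 1 or 2, CAST/Ei naive 1 or 2, or any CAST/Ei injured library; adjusted p = 0.054 to 0.107).

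miR-485-3p (chr12:109734946-109734967) was measured at 84.3, 114, 86.1, 114 and 66.8 CPM in C57BL/6 naive and 165, 198.7 and 216 CPM in injured libraries. In CAST/Ei it was 130.2, 208 and 61.2 CPM in naive and 228, 204 and 211 CPM in injured libraries. The C57BL/6 groups were apart, while CAST/Ei naive library 2 lay inside the injured range. The averaged difference was log2 0.96 ± 0.25 (SE, adjusted p = 0.039, limma). The call was lost in 10 of 27 alternatives, with edgeR (adjusted p = 0.065) and without any one of 9 libraries (adjusted p up to 0.120).

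miR-543-5p (chr12:109717269-109717289) was measured at 27.8, 26.4, 17.5, 28.9 and 13.5 CPM in C57BL/6 naive and 51.9, 51.1 and 47.9 CPM in injured libraries. In CAST/Ei it was 20.3, 41.6 and 6.53 CPM in naive and 55.1, 53.8 and 36.1 CPM in injured libraries. The C57BL/6 groups were apart and the CAST/Ei groups overlapped. The averaged difference was log2 1.26 ± 0.33 (SE, adjusted p = 0.041, limma), and the call was lost in 13 of 27 alternatives, edgeR among them (adjusted p = 0.076). miR-543-5p was the minor arm of its hairpin. The major arm miR-543-3p, with a mean of 343 CPM, did not pass with limma with all 14 libraries weighted alike. miR-543-3p passed with array weights (adjusted p = 0.034, limma) and with edgeR without C57BL/6 naive libraries 4 and 5 (adjusted p = 0.041).

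**Figure D3:**
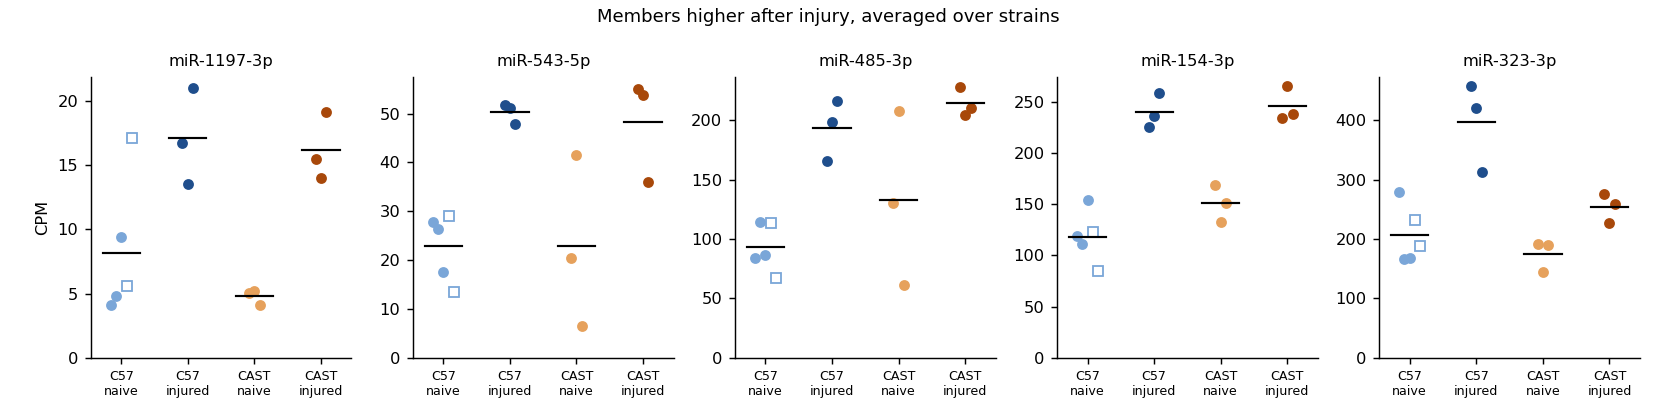
CPM (y axis, from 0) in each library of the 5 members called for injury averaged over strains, 1 panel each, by group (x axis); bars are group means and open squares are C57BL/6 naive libraries 4 and 5. miR-154-3p and miR-323-3p show no overlap between naive and injured libraries in either strain, while miR-1197-3p overlaps in C57BL/6 through naive library 5 and miR-485-3p and miR-543-5p overlap in CAST/Ei.

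The count of called members depended on the method. At an unadjusted p under 0.05, 16 of the 61 were higher and 0 lower, where 8.93% and 6.90% of all 638 were. edgeR on recovered reads called 3 higher, all among the 5, and 0 lower, where it called 2.66% and 0.940% of the 638. DESeq2 called 8 higher and 0 lower, where it called 4.55% and 3.45%, and its 8 held all 5 and added miR-381-3p, miR-539-5p and miR-409-3p. Without C57BL/6 naive libraries 4 and 5, limma called 12 higher and 0 lower, all 5 among them, where 5.33% of the 638 were called higher and 3.29% lower. The 7 others were miR-409-3p, miR-381-3p, miR-380-3p, miR-494-3p, miR-487b-3p, miR-379-5p and miR-539-5p, named after their values were seen. Leaving out single libraries gave 2 to 6 calls, with 2 without C57BL/6 injured 1 or 2, CAST/Ei naive 1 or any CAST/Ei injured library, and 3 without the first C57BL/6 naive, the last C57BL/6 injured or the last CAST/Ei naive library. Over these 14 fits 2.19% to 3.61% of the 638 were called higher and 0.157% to 1.72% lower.

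The median of the members lay above that of all 638 miRNAs by 0.30 to 0.31 log2 under each of the 4 library scalings. The level of the whole table itself moved with the scaling, from a median of 0.01 to 0.20 with plain CPM and 0.15 with a total that omits the 3 top miRNAs. Neuron markers summed to 109049 to 134811 CPM in naive C57BL/6, 113448 to 126844 in naive CAST/Ei, and 91081 to 95886 and 90273 to 96614 CPM in the injured groups. Their median difference was −0.14 with 0 of 6 called. Leukocyte markers had a median difference of 0.60 with 1 of 5 called, skeletal muscle markers −0.76 with 1 of 5 called, and epithelial markers −0.74 with 0 of 7 called. The part of any of these in the members' differences was not tested.

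Of the 34 tested 3p arms, 4 were called and 31 lay above 0, with a median of 0.42, while of the 27 tested 5p arms 1 was called and 20 lay above 0, with a median of 0.20. Among all kept miRNAs, 17 of 310 3p arms (5.48%) and 10 of 280 5p arms (3.57%) were called in either direction, with medians of 0.02 and 0.03. By position, the 21 members inside Mirg had a median of 0.27 with 2 called, and the 40 before it 0.34 with 3 called. These are descriptions, and the differences between arms and between positions were not tested.

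Among the called sequences printed above, miR-323-3p, miR-485-3p and miR-154-3p share the letters ACACGG, which begin at base 7. This run was picked after the values were seen and searched on the mature strand only, and its first letters overlap the seed. It occurred in 5 of the 65 members with a sequence (7.69%), these 3 with miR-411-3p and miR-494-3p. It also occurred in 2 of the 1614 RefSeq mature miRNAs that are not members (0.124%). The averaged injury difference of the other holders was log2 0.08 ± 0.20 (SE) for miR-411-3p and 0.54 ± 0.22 for miR-494-3p. Neither was called by limma with all 14 libraries weighted alike. limma called miR-494-3p with array weights (adjusted p = 0.019) and without C57BL/6 naive libraries 4 and 5 (adjusted p = 0.024). The match is a description of the sequences and not of a site or a cause.

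Within C57BL/6, 3 members rose after injury and 0 fell, where 2.35% of all 638 miRNAs were called higher and 0.784% lower. They were miR-379-5p, miR-154-3p and miR-323-3p. miR-379-5p (chr12:109709065-109709085), the first and most abundant member of the run, was measured at 1359.7, 1222, 1437, 989 and 578 CPM in naive and 2527, 2325 and 2563 CPM in injured libraries. No naive library reached the injured range. Its difference was log2 1.21 ± 0.27 (SE, adjusted p = 0.019, limma), that of miR-154-3p was 1.04 ± 0.23 (adjusted p = 0.017) and that of miR-323-3p was 0.95 ± 0.24 (adjusted p = 0.045). The calls of miR-379-5p and miR-154-3p were each lost in 4 of 28 alternatives, and that of miR-323-3p in 12 of 28 (adjusted p up to 0.204), edgeR without C57BL/6 naive libraries 4 and 5 among them.

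Across the 61 members the median difference in C57BL/6 was 0.51 log2 and 51 lay above 0, while the median of all 638 was 0.12 and 367 lay above 0. The summed myelinating glia markers were 8042 to 35823 CPM in naive and 36604 to 45393 CPM in injured C57BL/6 libraries (18219 to 35823 in naive libraries 1 to 3). The summed endothelial markers, both arms of miR-126a, were 11212 to 16081 and 18408 to 20895 CPM (15254 to 16081 in naive libraries 1 to 3). Neither pair of ranges overlapped, and limma called 0 of 3 and 0 of 2 of these markers. Skeletal muscle markers had a median difference of −0.94 with 2 of 5 called. Their sums were 5524 to 16091 CPM in naive and 8953 to 9643 CPM in injured C57BL/6 libraries. Epithelial markers had a median difference of −0.98 with 0 of 7 called. The epithelial sums were 226 to 1593 CPM in naive (226 to 274 in naive libraries 1 to 3) and 218 to 292 CPM in injured C57BL/6 libraries. The part of any of these markers in the members' differences was not tested. At an unadjusted p under 0.05, 25 members were higher and 2 lower, where 13.6% and 10.0% of the 638 were. In 14 members every injured library lay above every naive one and in 0 below, where 8.62% and 6.27% of the 638 were so placed. Besides the called ones these 14 held abundant members such as miR-376c-3p, which went from 760.1 ± 394 (SD, n = 5) to 1554 ± 94.2 CPM (n = 3) with adjusted p = 0.085 (limma), and miR-381-3p, from 312 ± 76.7 to 578 ± 85.1 CPM with adjusted p = 0.053. Both were chosen after their values were seen.

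edgeR called 4 members higher and 0 lower here, the same 3 with miR-381-3p, where it called 2.51% and 1.88% of the 638. DESeq2 called 8 higher and 2 lower, where it called 3.92% and 9.09%. Without C57BL/6 naive libraries 4 and 5, limma called 8 higher and 0 lower, the 3 included, where 3.61% of the 638 were called higher and 0.940% lower, and miR-379-5p differed by 0.89. None of the 3 calls held without C57BL/6 injured library 1, 2 or 3, when 2 injured libraries remained and 0 members passed. The count was 13 higher and 0 lower without naive library 3, where 6.43% of the 638 were called higher and 4.55% lower. It was 8 higher and 0 lower without naive library 5, where the shares were 3.13% and 0.627%. It was 5 without the last CAST/Ei naive library and 2 without the first, and it was 2 without any single CAST/Ei injured library. Over all 14 such fits 0.940% to 6.43% of the 638 were called higher and 0% to 4.55% lower. Of the 2 members that DESeq2 called lower, miR-494-5p rested on the libraries that stood apart. It was measured at 6.71, 10.1 and 4.56 CPM in naive libraries 1 to 3, at 855 and 364 CPM in libraries 4 and 5, and at 41.1, 5.75 and 7.10 CPM in the injured libraries. The other, miR-668-3p, also had its highest naive values in libraries 4 and 5.

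In CAST/Ei no member passed after injury. limma called 0 of 61, where 1.10% of the 638 were called higher and 0% lower, with 6 members higher and 0 lower at an unadjusted p under 0.05, where 4.70% and 1.72% of the 638 were. edgeR called 0 (1.10% and 0% of the 638), and DESeq2 called 1, miR-1197-3p (2.35% and 0.313% of the 638). The 3 members with the lowest p, none passing, were miR-1197-3p at log2 1.56 ± 0.41 (SE, adjusted p = 0.099), miR-154-3p at 0.70 ± 0.25 (adjusted p = 0.40) and miR-543-5p at 1.35 ± 0.49 (adjusted p = 0.40). For miR-1197-3p the adjusted p ranged from 0.0016 to 0.49 over 27 alternatives and was under 0.05 in 9, among them the fit without C57BL/6 naive libraries 4 and 5 (adjusted p = 0.012, with 1.88% of the 638 called higher and 0.784% lower) and that without library 5 alone (adjusted p = 0.018).

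The members' median difference in CAST/Ei was 0.07 with 41 above 0, and the median of all 638 was −0.09 with 273 above 0. With plain CPM the medians were 0.34 and 0.15. In 12 members every injured library lay above every naive one, where 10.2% of the 638 did so. In 3 members every injured library lay below, miR-379-3p, miR-376b-5p and miR-544-3p, where the share was 16.5%. miR-379-5p was at 2429 ± 348 CPM in naive and 2363 ± 56.5 CPM in injured CAST/Ei ganglia (SD, n = 3 each), a difference of log2 −0.03.

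**Figure D4:**
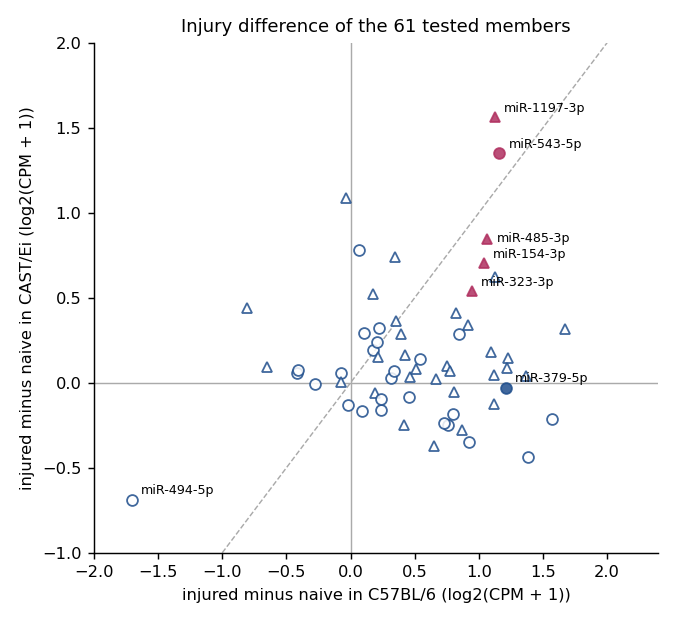
Injured minus naive difference of each of the 61 tested members in C57BL/6 (x axis) and in CAST/Ei (y axis), both on the log2(CPM + 1) scale; triangles are 3p and circles 5p arms, red marks the 5 members called for injury averaged over strains, solid blue marks miR-379-5p, called in C57BL/6 only, and the dashed line marks equal differences. Most members lie to the right of 0 in C57BL/6 (median 0.51) and close to 0 in CAST/Ei (median 0.07).

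Whether the injury difference itself differed between the strains was tested as an interaction. limma called 0 of the 61 members, and 0% of all 638 miRNAs were called in either direction. At an unadjusted p under 0.05, 1 member was higher and 5 were lower, where 2.98% and 5.17% of the 638 were. edgeR and DESeq2 each called 0 members, where DESeq2 called 1.25% of the 638 higher. The 3 lowest p-values belonged to miR-379-5p, with a CAST/Ei minus C57BL/6 difference of −1.24 ± 0.40 log2 (SE), to miR-376b-5p at −1.82 ± 0.67 and to miR-379-3p at −1.02 ± 0.41, each with adjusted p = 0.529. The intervals are wide, and for miR-379-5p the 95% interval ran from −2.10 to −0.39 before adjustment for the number tested. The members' median was −0.40 and that of all 638 was −0.20. These were −0.28 and −0.21 without C57BL/6 naive libraries 4 and 5, and with DESeq2 −0.20 and 0.02. For no single member was the injury difference in C57BL/6 shown to differ from that in CAST/Ei.

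Between the strains in naive ganglia, 3 members were higher in CAST/Ei and 0 lower, where 5.96% of the 638 miRNAs were called higher and 5.17% lower. The members called are 4.92% of the 61, near the share in the table. This comparison and the injury comparison in C57BL/6 share the 5 C57BL/6 naive libraries, so a low value there enters both. miR-376b-5p (chr12:109723471-109723492) was measured at 189, 355, 414, 81.7 and 123 CPM in C57BL/6 and at 721, 927 and 888 CPM in CAST/Ei naive libraries. Every CAST/Ei library lay above every C57BL/6 one. The difference was log2 2.10 ± 0.44 (SE, adjusted p = 0.0071, limma), a ratio of means of 3.64, and it passed in all 28 alternatives, at 1.47 without C57BL/6 naive libraries 4 and 5.

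miR-379-5p was at 2754, 2062 and 2471 CPM in the CAST/Ei naive libraries, all above the C57BL/6 naive values given for the injury comparison. The difference was log2 1.18 ± 0.27 (SE, adjusted p = 0.012, limma). It was 0.85 without C57BL/6 naive libraries 4 and 5 (adjusted p = 0.0033), and the call was lost without CAST/Ei naive library 1 (adjusted p = 0.060) and in a fit of the naive groups alone (adjusted p = 0.11). miR-495-3p (chr12:109718795-109718816) was at 328.5, 434, 699, 163 and 304 CPM in C57BL/6 and 727, 899 and 693 CPM in CAST/Ei. The groups overlapped through C57BL/6 library 3, the difference was log2 1.15 ± 0.35 (SE, adjusted p = 0.048), and the call was lost in 21 of 28 alternatives, including edgeR (adjusted p = 0.066), DESeq2 (adjusted p = 0.069) and the fit without libraries 4 and 5 (adjusted p = 0.073).

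In naive ganglia the members' median strain difference was 0.27 and that of all 638 was 0.12. These medians were 0.15 and 0.12 without C57BL/6 naive libraries 4 and 5, and with DESeq2 they were 0.09 and −0.05. At an unadjusted p under 0.05, 13 members were higher and 3 lower, where 19.0% and 12.9% of the 638 were. In 5 members every CAST/Ei library lay above every C57BL/6 one and in 0 below, where 9.40% and 7.05% of the 638 did so. edgeR called 2 members higher, both among the 3, and 0 lower, where it called 5.80% and 6.90%. DESeq2 called 2 higher and 3 lower, where it called 5.80% and 12.7%. The 3 were miR-412-3p, miR-668-3p and miR-667-3p, named after their values were seen. Each of them had its highest C57BL/6 naive values in libraries 4 and 5, and limma called none of them with or without those libraries. Without C57BL/6 naive libraries 4 and 5, limma called 4 higher and 1 lower, miR-376c-3p at −0.68, where 9.09% and 5.17% of the 638 were called, and 2 of the 3 calls held. The count was 13 (10 higher and 3 lower) without C57BL/6 naive library 3, where 13.3% of the 638 were called higher and 9.87% lower. It was 1, higher, without CAST/Ei naive library 1, where the shares were 1.57% and 3.92%. It was 2 without each of 10 other libraries, among them C57BL/6 naive libraries 1 and 4. Myelinating glia markers summed to 37054 to 42836 CPM in naive CAST/Ei and 8042 to 35823 in naive C57BL/6, with 0 of 3 called, and endothelial markers to 18746 to 27549 and 11212 to 16081 CPM, with 0 of 2 called. Leukocyte markers had a median strain difference of −0.32 with 1 of 5 called. The part of any of these markers in the members' differences was not tested.

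In injured ganglia limma called 0 of the 61 members between the strains, where 0.784% of the 638 were called higher in CAST/Ei and 2.51% lower. At an unadjusted p under 0.05, 4 members were lower and 0 higher, where 6.11% and 2.66% of the 638 were. edgeR called 0 (0.784% higher and 2.51% lower over the 638), as did DESeq2 (1.41% and 2.51%). The member with the lowest p was miR-376c-3p, from a hairpin of the miR-376 family. It was measured at 1609.6, 1606 and 1445 CPM in C57BL/6 injured and 725, 656 and 711 CPM in CAST/Ei injured libraries. The groups were far apart, with a ratio of means of 0.449 and a difference of log2 −1.15 ± 0.43 (SE, adjusted p = 0.32, limma over all 14 libraries).

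The spread shared by all groups in that fit included the C57BL/6 naive values of miR-376c-3p, which were 1246, 951, 879.7, 454 and 270.3 CPM. Without C57BL/6 naive libraries 4 and 5 the same difference had adjusted p = 0.00085, without library 5 alone adjusted p = 0.044, and in a fit of the injured groups alone adjusted p = 0.00014. In these fits limma called 2, 1 and 8 members lower in CAST/Ei and 0 higher. Without library 5 it called 2.82% of the 638 lower and 1.10% higher, and with the injured groups alone 10.7% lower and 5.80% higher. With libraries 4 and 5 left out the 2 were miR-376c-3p and miR-544-3p (−0.87), where 3.61% of the 638 were called lower and 2.04% higher. The next lowest p-values over all 14 libraries were those of miR-323-3p at −0.63 ± 0.27 (SE, adjusted p = 0.45) and miR-1193-3p at −0.70 ± 0.32 (adjusted p = 0.55).

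In 12 members every CAST/Ei injured library lay below every C57BL/6 injured one, and in 3 above, where 20.5% and 15.4% of the 638 did so. As a share of the tested members, the 12 were no more frequent than such miRNAs were among the 638. The 12 included miR-376a-5p, miR-376a-3p, miR-376c-5p and miR-376c-3p, but neither arm of miR-376b. These arms were picked after their values were seen, and the difference between the miR-376 hairpins was not tested. The members' median was −0.08 and that of all 638 was −0.06. The sign of the members' median was not firm, since it was 0.03 with a total that omits the 3 top miRNAs.

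**Figure D5:**
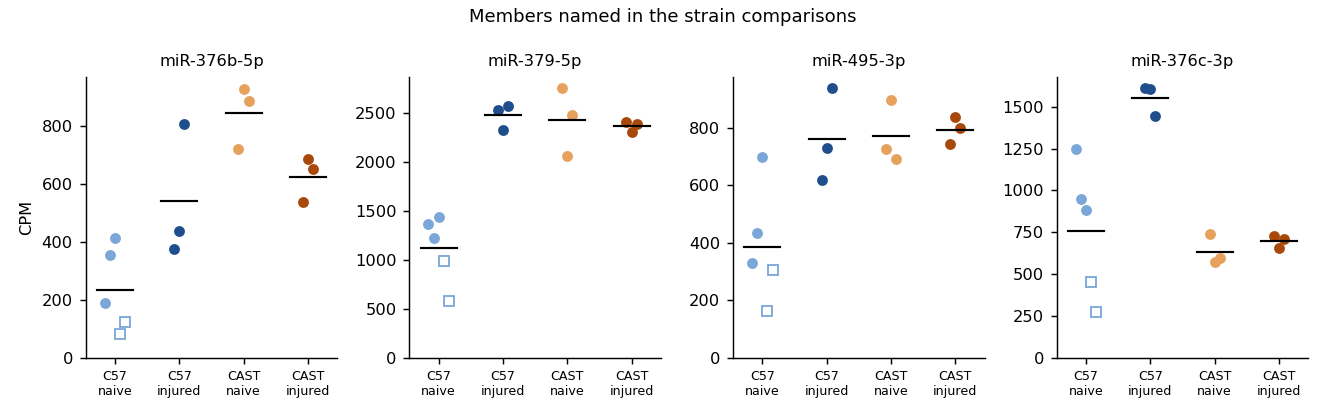
CPM (y axis, from 0) in each library of miR-376b-5p, miR-379-5p, miR-495-3p and miR-376c-3p, 1 panel each, by group (x axis); bars are group means and open squares are C57BL/6 naive libraries 4 and 5. miR-376b-5p and miR-379-5p are lowest in C57BL/6 naive ganglia without overlap with CAST/Ei naive libraries, and miR-376c-3p is highest in C57BL/6 injured ganglia.

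The group means of each member were also placed in order. The C57BL/6 naive mean was the lowest of the 4 in 33 of the 61 members (54.1%) and in 34.8% of all 638 miRNAs. The C57BL/6 injured mean was the highest in 30 of 61 (49.2%) and in 23.7% of the 638. Without naive libraries 4 and 5 these counts were 34 and 32 of 61, against 36.1% and 25.9% of the 638. The counts describe the means and were given no test.

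The other miRNAs of the Dlk1-Dio3 domain served as the nearest comparison. That list, which runs from miR-770 to miR-370 and holds miR-431, miR-127 and miR-341, had 28 of 32 mature miRNAs kept. For injury averaged over strains, 4 of the 28 were called higher and 0 lower with a median of 0.28, beside 5 of 61 and 0.31 in the cluster. miR-431-5p led that list at log2 1.81 ± 0.20 (SE, adjusted p = 6.5e-05, limma), above any member of the cluster. For strain in naive ganglia, 2 of the 28 were higher and 6 lower in CAST/Ei, led by miR-341-3p at −4.89 ± 0.58 (SE, adjusted p = 3.0e-05). Over all 14 libraries limma called 0 members of the cluster lower there, and the lowest value was that of miR-412-3p at −1.12. That member reached 5 CPM only in C57BL/6 naive libraries 4 and 5 (11.3 and 6.96 CPM) and CAST/Ei injured library 3 (7.34 CPM). Its CAST/Ei naive values were 1.03 to 1.59 CPM, so its difference rests on libraries 4 and 5 and on low values. DESeq2 called lower the 3 members named with the strain comparison, whose C57BL/6 naive values were highest in libraries 4 and 5. The limma fit without those libraries called 1 lower, miR-376c-3p. The differences between the 2 lists were not tested.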

How the data were processed

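The authors deposited 1 table per library with a signal value for each of 1123 mature miRNAs. Bowtie2 is named in the submitters' processing notes, with no version, and RNA came from the miRVana kit and libraries from the Ion Total RNA-Seq kit per the labels' protocols. For genome build and miRNA release, the sources used here name none. In every library 100% of the deposited signal values are whole multiples of 1 read (tolerance 1e-06 reads), so whole read counts were recovered. The signal equals CPM on library sizes rescaled by TMM factors (largest difference 8.89e-06). Recovery is least certain in C57BL/6 injured library 1, whose read step lies near a round decimal.

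Values were tested as log2(CPM + 1) with limma-trend (R 4.3.3, limma 3.58.1), with 1 mean for each of 4 groups over all 14 libraries. The filter (5 CPM or more in 3 libraries or more) left 638 miRNAs, over which p-values were adjusted within a contrast. Arm ratios were tested with limma on log2 of the 5p over the 3p value, 1 added to each. edgeR 4.0.16 and DESeq2 1.42.0 on recovered reads, 4 scalings, pseudocounts, filters and left-out libraries were alternatives. The test was tried first on simulated data.

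The members, lists and tests were chosen with earlier results of these data known. Text names the members past the threshold (at most 10 each way, or the 3 lowest p where fewer than 3 passed), the 10 most abundant, miR-379-5p, miR-410-3p, miR-134-5p, those that failed the filter and the 3 highest and lowest arm shares. Others were chosen after their values were seen. Replicate numbers were not used to pair libraries, since the labels give them no shared meaning and not every same-numbered pair had r over 0.1.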

Additional observations from a re-analysis of the deposited data

Results flagged for a closer look

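Among 21 values examined in the 5 C57BL/6 naive libraries (those of the named members and the summed level), 1 held a library far from the rest. miR-541-5p, the fifth most abundant member, was at 2404.7 CPM in C57BL/6 naive library 3, while the other 4 libraries lay between 778.6 and 1085.6 CPM. The gap of library 3 to its nearest neighbour was 0.811 of the whole range, above the critical value of 0.710 for 5 libraries. Chance flags about 1 in 20 such groups. The cause was not tested, and miR-541-5p was called in no comparison by limma.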

How the results depend on the processing

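Counts of called members moved more than 1.5 times under several alternatives, while of 550 pairings of a named member's difference with an alternative 456 kept their direction and side of the threshold, 73 lost the call, 21 gained it and 0 reversed. For injury in C57BL/6 the count of 3 became 5 with the low filter raised to 20 CPM, 10 with DESeq2, 0 with only the groups compared, 8 without C57BL/6 naive libraries 4 and 5, 17 with array weights and 5 with edgeR without those libraries, and 0 to 13 with 1 library left out. For injury in CAST/Ei the count of 0 became 1 with plain CPM, with the 3 top miRNAs out of the total, with DESeq2, with only the groups compared and without libraries 4 and 5, 3 with array weights and 2 with edgeR without those libraries, and 0 to 1 with 1 library left out. For strain in naive ganglia the count of 3 became 5 with DESeq2, 1 with only the groups compared and 5 without libraries 4 and 5, and 1 to 13 with 1 library left out. For strain in injured ganglia the count of 0 became 8 with only the groups compared, 2 without libraries 4 and 5, 8 with array weights and 2 with edgeR without those libraries, and 0 to 1 with 1 library left out. For injury averaged over strains the count of 5 became 8 with plain CPM, 3 with edgeR, 8 with DESeq2, 12 without libraries 4 and 5, 16 with array weights and 13 with edgeR without those libraries, and 2 to 6 with 1 library left out. The interaction stayed at 0 in every alternative run. For arm ratios, injury gave 2 calls without libraries 4 and 5. edgeR without libraries 4 and 5 was added after the data were seen. Of all 638 miRNAs it called 3.13% for injury in C57BL/6 and 2.66% for injury in CAST/Ei, in either direction. It called 5.02% for strain in injured ganglia and 8.31% for injury averaged over strains. Shares under array weights, the other scalings and the raised filter are not given here, nor those of most fits of only the groups compared. Counts without a share do not show a result particular to the members. The causes were not tested.

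With the replicate block the counts were 11 for injury in C57BL/6, 1 for injury in CAST/Ei, 7 and 2 for strain in naive and injured ganglia, 12 for injury averaged over strains, and 1 for the arm ratio between strains. Apart from the arm ratio, these were 18.0%, 1.64%, 11.5%, 3.28% and 19.7% of the 61 members. Of all 638 miRNAs the block called 5.80%, 3.29%, 17.4%, 5.64% and 9.25% in either direction. Its share for the arm ratio is not given here. The numbers are not shown to pair the libraries: the 6 same-numbered pairs had r from −0.23 to 0.32, and 3 of 6 naive libraries matched their own number best. Numbers 4 and 5 occur only among C57BL/6 naive libraries, so the block gives those libraries no weight in the contrasts.

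With the 3 top miRNAs out of the total the summed level was 22971 and 32361 CPM in naive and injured C57BL/6 and 26029.7 and 31713 CPM in naive and injured CAST/Ei ganglia. Without its most abundant member, miR-379-5p, it was 23084 CPM in injured C57BL/6, and 20019 and 20902 CPM in naive and injured CAST/Ei ganglia. With plain CPM the naive and injured CAST/Ei values were 20867 and 25907, and with DESeq2 size factors 21451 in CAST/Ei naive ganglia. Low members rest on few reads, and 3 reads set the floor.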
